A study of Homo sapiens with 4 samples.

Results

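The intracellular core of the canonical Wnt pathway was followed through 10 genes: the coreceptors LRP5 and LRP6, the messenger CTNNB1, the destruction complex genes APC, AXIN1, AXIN2 and GSK3B, and the transcription factors TCF7L1, TCF7L2 and LEF1. They were taken as every probe set whose only gene symbol in the platform annotation is one of these 10, which gave 34 probe sets of 41091 with a single gene symbol. Of the 34, 20 passed a floor on signal and 14 did not. A probe set passed if its log2 signal, averaged over the arrays, reached the median of that average across the non-control probe sets, a signal of 52.9. Across the whole array, 22829 single-gene probe sets passed it.

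The arrays measured total RNA of HCCLM3, a human hepatocellular carcinoma cell line, sorted magnetically by the surface protein EpCAM. The 4 groups were EpCAM-negative cells given a miR-429 mimic (100 nM), EpCAM-negative cells given a negative control (NC) mimic (100 nM), EpCAM-positive cells given antagomir-429 (40 µM) and EpCAM-positive cells given an NC antagomir (40 µM), each for 4 days. A mimic is a synthetic duplex that adds microRNA activity, and an antagomir is a cholesterol-conjugated antisense RNA that blocks it. Each group is 1 culture of 1 line on 1 array, so no difference below could be tested, and each is a ratio between 2 arrays. The sort, the reagent and its delivery differ between the mimic pair and the antagomir pair and cannot be told apart across them.

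Without a Wnt signal, AXIN and APC proteins hold β-catenin, the product of CTNNB1, beside the kinase GSK3B, which marks it for destruction. Wnt ligands bind a Frizzled receptor together with LRP5 or LRP6, the complex is inhibited, and β-catenin enters the nucleus, where it binds TCF and LEF proteins on DNA. In the liver the pathway sets the zonal program around the central vein, and hepatocellular carcinomas often carry CTNNB1 or AXIN1 mutations. β-catenin is controlled mainly through its stability as a protein, which an mRNA array does not measure.

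The miR-200 family, to which miR-429 belongs, pairs with target mRNAs mainly through the seed, bases 2 to 8. The mature sequences are shown because the mimic adds, and the antagomir is directed against, the first of them. They come from RefSeq (GRCh38.p14), 5′ to 3′, with the seed in capitals. miR-429 lies at chr1:1169055-1169076 on the plus strand.
hsa-miR-429: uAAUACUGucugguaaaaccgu
hsa-miR-200b-3p: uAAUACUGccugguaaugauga
hsa-miR-200c-3p: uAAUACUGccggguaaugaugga
hsa-miR-200a-3p: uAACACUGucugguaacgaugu
hsa-miR-141-3p: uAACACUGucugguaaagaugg
The first 3 share 1 seed. miR-200a-3p and miR-141-3p carry another, which differs from that of miR-429 by U4C, counted from the 5′ end of the microRNA. Target sites of these seeds in the 10 genes were not analysed here.

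Promoters of 8 of the 10 genes were matched in the RefSeq table, from 250 bases before to 50 after the gene start. Those of AXIN2 and LRP6 were not matched. They were searched on both strands for the TCF/LEF core CTTTGA or CTTTGT, through which β-catenin's partners bind DNA, and for the E-box CACCTG, which the ZEB repressors bind and the miR-200 family is known to act on through ZEB1 and ZEB2. The TCF/LEF core was in 0 of 8, against 26.3% of 27305 promoters of the same length. The E-box was in 1 of 8, AXIN1, against 20.6% of 27305. The AXIN1 promoter is shown for that match, in capitals, at -185 from the start, and the TCF7L2 promoter because the probe sets of that gene moved together between the control arrays. A match of letters is a description of the sequence and not a binding site. AXIN1 lies on the minus strand at chr16:352674-352973 and TCF7L2 on the plus strand at chr10:112949997-112950296, both in GRCh38.p14.
AXIN1 promoter: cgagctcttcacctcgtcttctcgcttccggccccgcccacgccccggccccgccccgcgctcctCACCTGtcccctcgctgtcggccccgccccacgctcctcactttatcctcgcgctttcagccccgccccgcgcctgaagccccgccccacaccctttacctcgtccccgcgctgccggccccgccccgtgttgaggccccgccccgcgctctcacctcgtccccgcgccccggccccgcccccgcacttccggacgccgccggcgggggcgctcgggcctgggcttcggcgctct
TCF7L2 promoter: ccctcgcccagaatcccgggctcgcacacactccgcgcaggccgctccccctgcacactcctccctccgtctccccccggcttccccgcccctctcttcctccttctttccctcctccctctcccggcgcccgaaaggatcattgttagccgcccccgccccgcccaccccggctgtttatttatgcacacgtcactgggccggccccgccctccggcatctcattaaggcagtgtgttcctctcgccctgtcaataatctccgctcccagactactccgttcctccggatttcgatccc

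On the 4 arrays the trimmed mean signal was 500.1, and 54.2% to 55.9% of non-control probe sets reached the floor. EPCAM mRNA itself reached 3838 with the miR-429 mimic against 1106 with the NC mimic in EpCAM-negative cells, and 912.6 with antagomir-429 against 1235 with the NC antagomir in EpCAM-positive cells. The sort labels were therefore not mirrored in EPCAM mRNA: the control array labelled positive was 0.16 higher on the log2 scale than the one labelled negative. Of the hepatocyte markers on the array, 2 of 9 passed the floor. These were AFP, with 98.8 with the miR-429 mimic against 91.5 with the NC mimic and 94.6 with antagomir-429 against 119 with the NC antagomir, and APOA1, between 66.2 and 91.7. The sum over the 9, most of them under the floor, lay between 380.1 and 593. ALB, the defining hepatocyte gene, was under the floor on all 4 arrays. Epithelial markers were bright, with 3 of 4 past the floor and a sum over the 4 of 74987 to 85057. Of the leukocyte markers 1 of 3 passed, of the endothelial 2 of 4 and of the stromal 3 of 5. The sums over each whole list, markers under the floor included, were 111 to 160.5, 198 to 454 and 7735 to 10917. Within the stromal sum COL1A1 alone read 7162 to 10500. PDGFRB and DCN read 89.4 to 384, and COL1A2 and LUM did not pass. The part of the leukocyte, endothelial and stromal markers in the results was not tested.

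**Figure D1:**
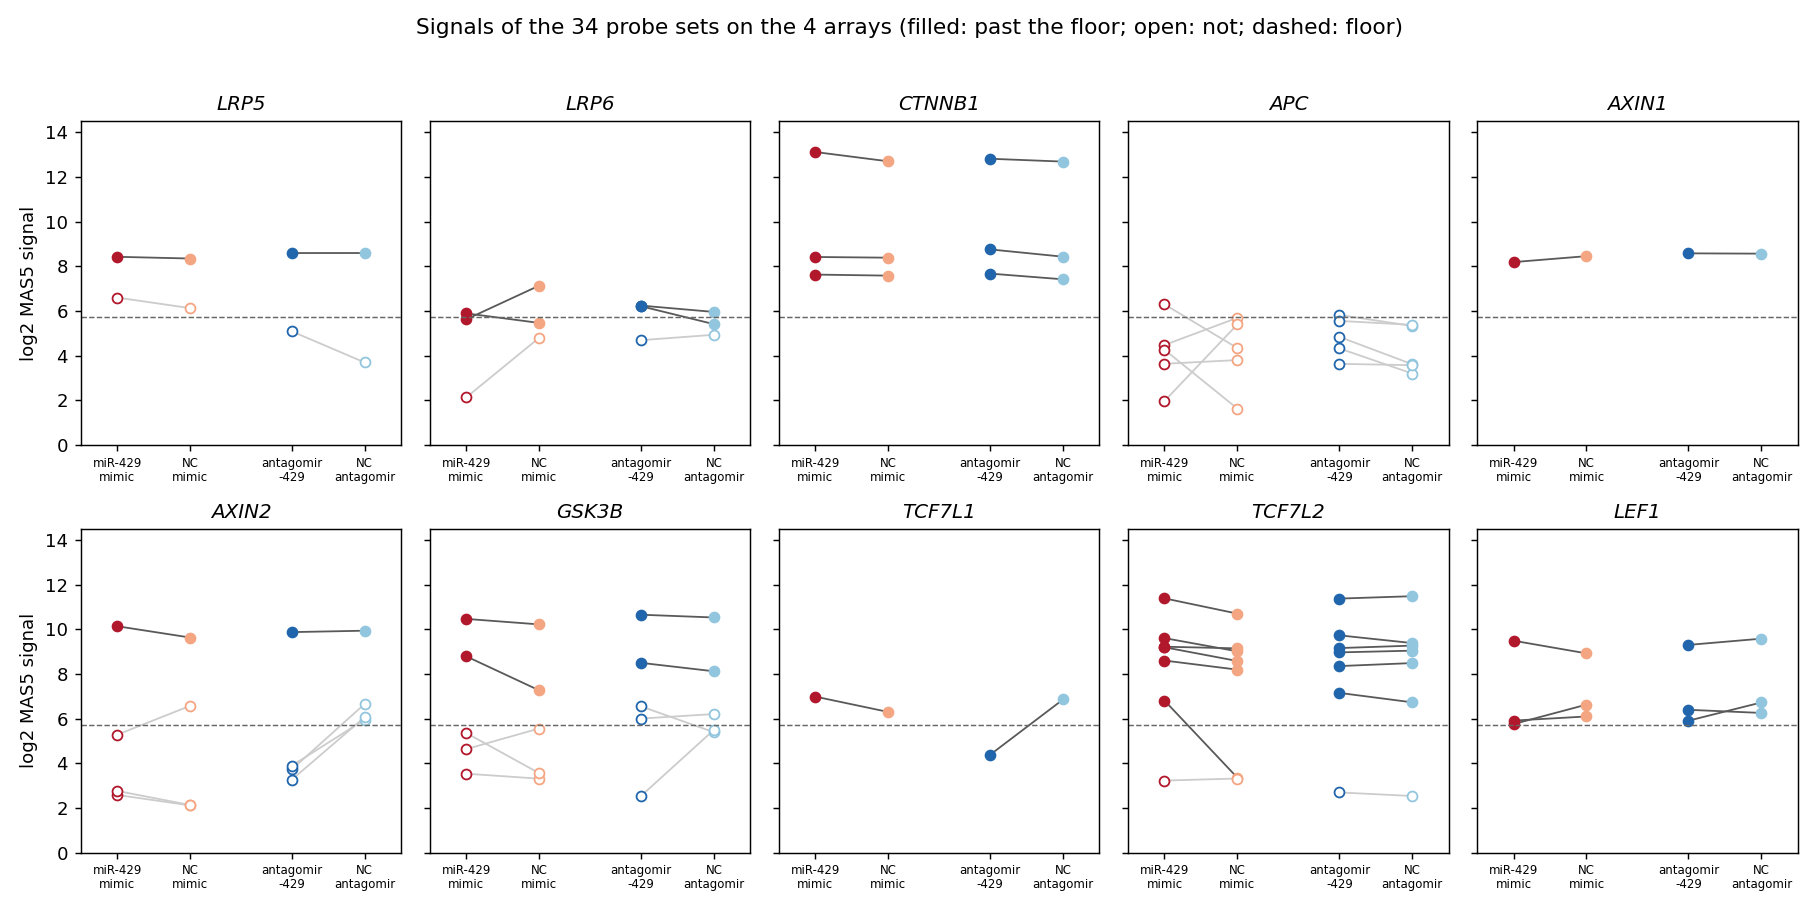
Signal (log axis) of each of the 34 probe sets of the 10 genes on the 4 arrays, 1 point per array, grouped by gene, with the floor at 52.9 as a dashed line; filled points are probe sets that passed the floor and open points those that did not. The 5 APC probe sets sit around or under the floor, CTNNB1 201533_at is at 6639.7 or above on each array, and the NC mimic point is the lowest of the 4 in 6 of 6 filled TCF7L2 probe sets.

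The coreceptors LRP5 and LRP6 pair with Frizzled at the membrane and recruit AXIN when Wnt binds. LRP5 was nearly level over the arrays. Its probe set 209468_at had signals of 346 with the miR-429 mimic against 328 with the NC mimic, and of 388 with antagomir-429 against 389 with the NC antagomir. On the log2 scale the mimic was higher by 0.08 and antagomir-429 differed by -0.00. These array-to-array differences lie inside the scatter of probe sets of like signal, which is the robust SD of their log2 ratios. The mimic ratio of LRP5 209468_at was -0.03 with each array centred on its median expressed probe set and -0.02 after quantile normalization, so its small excess with the mimic has no fixed sign. A second LRP5 probe set, 229591_at, did not pass the floor.

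LRP6 had 1 of the 3 member ratios past 2-fold with the mimic, at a probe set close to the floor. LRP6 225745_at had signals of 49.5 with the miR-429 mimic against 141 with the NC mimic, and of 74.5 with antagomir-429 against 42.7 with the NC antagomir. LRP6 34697_at had 59.6 with the miR-429 mimic against 44.4 with the NC mimic, and 76.0 with antagomir-429 against 62.4 with the NC antagomir. For 225745_at the NC mimic array alone stood high, and for 34697_at it was the lowest of the 4. With the mimic, LRP6 225745_at was at least 2.67-fold lower, taken against the floor, while 34697_at, whose NC mimic array was under the floor, was at least 1.13-fold higher. With antagomir-429, 225745_at was at least 1.41-fold higher and 34697_at was higher by 0.28. Set against the NC antagomir array instead, 225745_at was under the floor on both arrays and no fold is given, so its difference with the mimic rests on the NC mimic array. The remaining probe set, 205606_at, was under the floor on all 4 arrays. In RNA of a whole culture, fewer cells with a transcript and less of it per cell cannot be told apart, here and below.

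CTNNB1, which encodes β-catenin, was brightest through 201533_at, with signals of 8936 with the miR-429 mimic against 6699 with the NC mimic, and of 7252 with antagomir-429 against 6639.7 with the NC antagomir. The miR-429 mimic array stood above the other 3, which lay close together. That is a log2 ratio of 0.42 with the mimic and 0.13 with antagomir-429. CTNNB1 223679_at had 344 with the miR-429 mimic against 336 with the NC mimic, and 435 with antagomir-429 against 347 with the NC antagomir, ratios of 0.03 and 0.33. CTNNB1 1554411_at had 199 with the miR-429 mimic against 193 with the NC mimic, and 205 with antagomir-429 against 172 with the NC antagomir, ratios of 0.05 and 0.26. All 3 probe sets were above 0 in both pairs, each under 1.5-fold. The mimic ratios of 223679_at and 1554411_at were -0.08 and -0.06 with each array centred on its median, and -0.07 and -0.03 after quantile normalization, so only 201533_at stayed above 0 with the mimic under those scalings. Between the 2 control arrays, 201533_at differed by -0.01.

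APC, the large scaffold and tumor suppressor of the complex, did not pass the floor, in the mean over the arrays, with any of its 5 probe sets. Their signals over the 4 arrays ranged from 3.11 to 79.0. A single probe set, 203527_s_at, reached 79.0 with the miR-429 mimic, against 20.3 with the NC mimic, which is at least 1.49-fold higher against the floor. Its values were 20.1 with antagomir-429 against 9.23 with the NC antagomir. Another, 203526_s_at, read 3.93 with the miR-429 mimic against 42.3 with the NC mimic, the opposite order and both under the floor. The bound of 1.49-fold rests on 1 array of 1 probe set that did not pass the floor in its mean. No direction of APC mRNA was read from these signals.

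The AXIN genes encode the scaffold that limits assembly of the complex. AXIN1 was level in the antagomir pair and the lowest with the mimic. AXIN1 212849_at had signals of 293 with the miR-429 mimic against 353 with the NC mimic, and of 385 with antagomir-429 against 381 with the NC antagomir. Its log2 ratio was -0.27 with the mimic and 0.01 with antagomir-429, and this second ratio was -0.02 with each array centred and -0.01 after quantile normalization.

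AXIN2, the feedback scaffold that β-catenin itself induces, had signals at 222696_at of 1129 with the miR-429 mimic against 795 with the NC mimic, and of 940.2 with antagomir-429 against 982 with the NC antagomir. The NC mimic array was the lowest and the mimic array the highest. The log2 ratio was 0.51 with the mimic and -0.06 with antagomir-429. The other 3 AXIN2 probe sets did not pass the floor. In each of them the NC antagomir array was above the floor and antagomir-429 under it: 224176_s_at had 13.3 with antagomir-429 against 101 with the NC antagomir, at least 1.92-fold lower. For 224498_x_at and 222695_s_at the bounds were at least 1.18-fold and 1.27-fold lower. The bright AXIN2 probe set did not show that difference. In the mimic pair, 224176_s_at had 38.8 with the miR-429 mimic against 95.1 with the NC mimic, at least 1.80-fold lower. That is the opposite order to the bright probe set. Both arrays of that pair were under the floor for 224498_x_at and 222695_s_at.

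GSK3B, the kinase that phosphorylates β-catenin, was lowest in the NC mimic array at both probe sets past the floor. GSK3B 226191_at had signals of 444 with the miR-429 mimic against 154 with the NC mimic, and of 362 with antagomir-429 against 279 with the NC antagomir. It was 2.87-fold higher with the mimic, a log2 ratio of 1.52, and 0.38 higher with antagomir-429. GSK3B 209945_s_at had 1417 with the miR-429 mimic against 1195 with the NC mimic, and 1613 with antagomir-429 against 1481 with the NC antagomir, ratios of 0.25 and 0.12. The probe sets gave the same sign and different sizes. Against the NC antagomir array the mimic ratio of 226191_at was 0.67, under 2-fold. The 3 other GSK3B probe sets were under the floor in their mean.

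**Figure D2:**
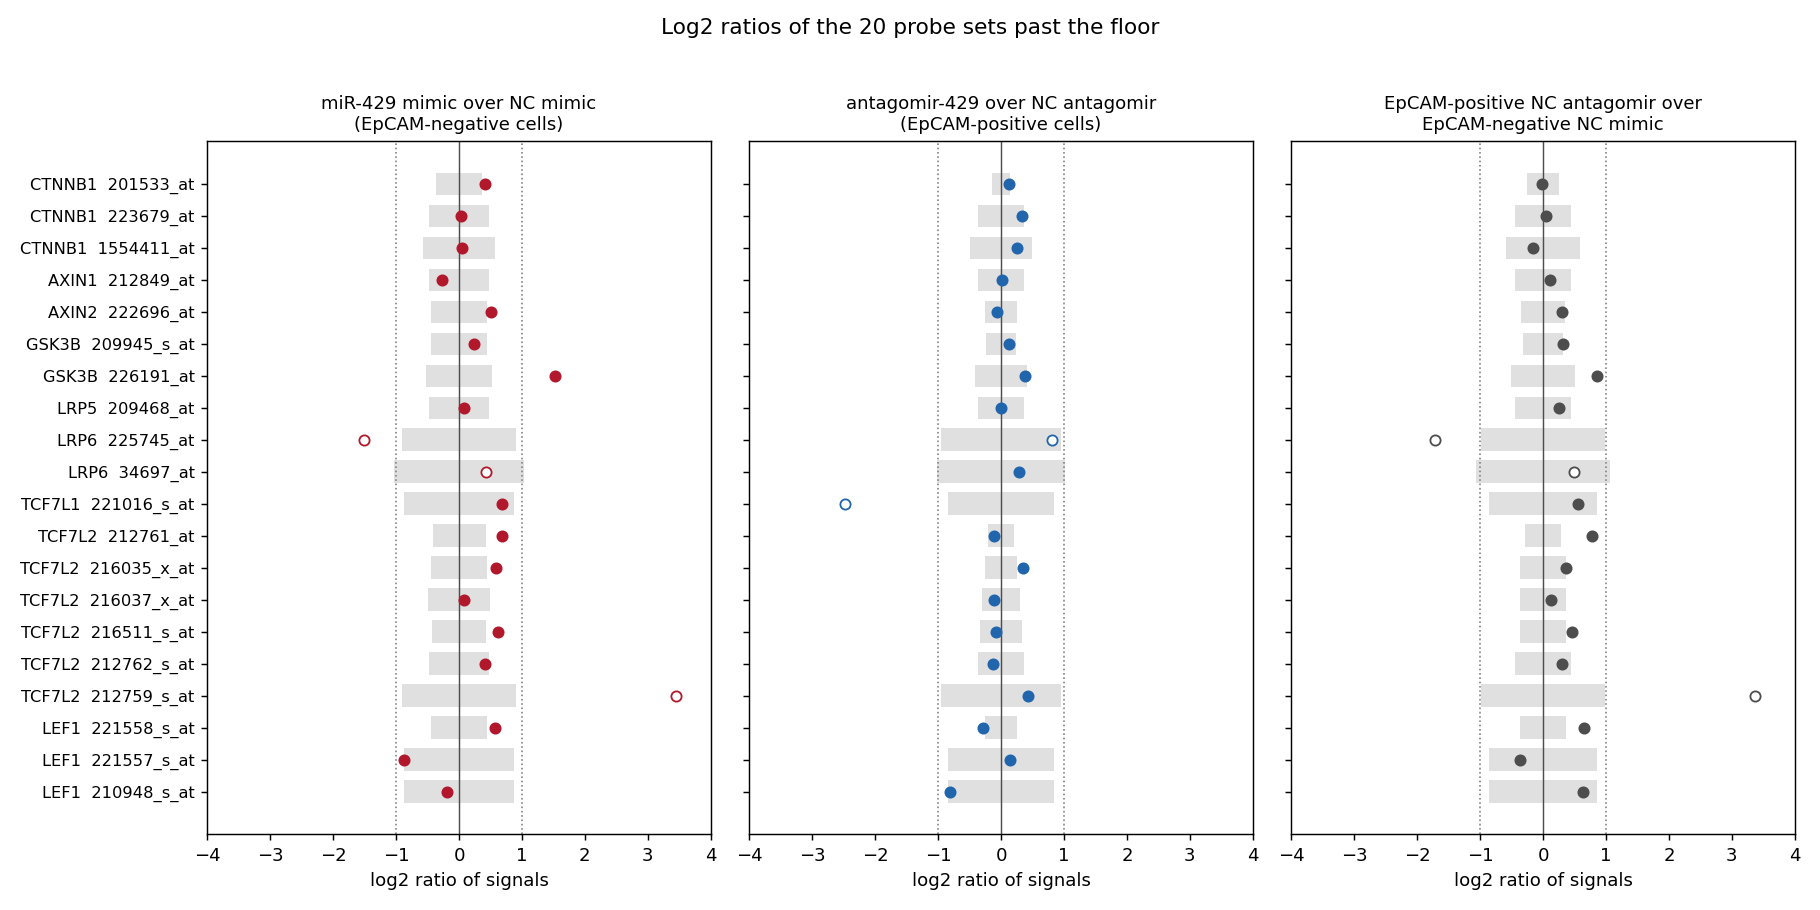
Log2 ratios of the 20 probe sets past the floor in the 3 comparisons (miR-429 mimic over NC mimic, antagomir-429 over NC antagomir, EpCAM-positive NC antagomir over EpCAM-negative NC mimic), 1 point per probe set. Grey bars are plus and minus the robust SD of probe sets of like signal, open points have 1 or both arrays under the floor, and dotted lines mark 2-fold. Past 2-fold with the mimic lie GSK3B 226191_at (1.52), TCF7L2 212759_s_at (3.45) and LRP6 225745_at (-1.51). The TCF7L2 and LRP6 points each have 1 array under the floor. TCF7L1 (-2.47, with its antagomir-429 array under the floor) lies past it with the antagomir.

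TCF7L1, which in many cells represses Wnt targets until β-catenin displaces or removes it, was the single member past 2-fold in the antagomir pair. Its 1 probe set, 221016_s_at, had signals of 127 with the miR-429 mimic against 78.8 with the NC mimic, and of 20.9 with antagomir-429 against 116 with the NC antagomir. The antagomir-429 array alone was under the floor. TCF7L1 was at least 2.20-fold lower with antagomir-429 against the floor, and 0.69 higher with the mimic on the log2 scale. It is a dim gene with no second probe set to set beside it.

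TCF7L2, the main TCF of liver and gut epithelium, had 7 probe sets, of which 6 passed the floor, and the NC mimic array was the lowest of the 4 in 6 of 6. The brightest, 212761_at, had signals of 2681 with the miR-429 mimic against 1669 with the NC mimic, and of 2662 with antagomir-429 against 2867 with the NC antagomir. The other arrays lay together and the NC mimic array below them. TCF7L2 216511_s_at had 588 with the miR-429 mimic against 384 with the NC mimic, and 501 with antagomir-429 against 528 with the NC antagomir. TCF7L2 216035_x_at had 780.4 with the miR-429 mimic against 518 with the NC mimic, and 850.3 with antagomir-429 against 669 with the NC antagomir. TCF7L2 212762_s_at had 389 with the miR-429 mimic against 293 with the NC mimic, and 328 with antagomir-429 against 359.6 with the NC antagomir. All 4 showed the same low control, with mimic ratios of 0.68, 0.62, 0.59 and 0.41. TCF7L2 216037_x_at was nearly level, with 597 for the miR-429 mimic against 568 for the NC mimic, and 573 for antagomir-429 against 618 for the NC antagomir. Its mimic ratio of 0.07 was -0.04 with each array centred and -0.02 after quantile normalization.

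The dimmest TCF7L2 probe set past the floor, 212759_s_at, had the same order in a larger size. Its signals were 112 with the miR-429 mimic against 10.3 with the NC mimic, and 142 with antagomir-429 against 106 with the NC antagomir. Against the floor it was at least 2.12-fold higher with the mimic. The antagomir ratios of the 6 ranged from -0.13 to 0.42, with 4 of 6 below 0. Against the NC antagomir array, the mimic ratio was -0.10 for 212761_at and 0.08 for 212759_s_at, so neither kept its mimic difference when the control array was the other one. These probe sets share a transcript and an array and are not independent readings.

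LEF1, a TCF family member that β-catenin signalling itself induces in many tissues, gave mixed signs. LEF1 221558_s_at had signals of 719.7 with the miR-429 mimic against 486 with the NC mimic, and of 632 with antagomir-429 against 767 with the NC antagomir. Here the NC mimic array was again the lowest, with log2 ratios of 0.57 with the mimic and -0.28 with antagomir-429. LEF1 221557_s_at had 54.1 with the miR-429 mimic against 99.0 with the NC mimic, and 84.3 with antagomir-429 against 76.5 with the NC antagomir, ratios of -0.87 and 0.14. LEF1 210948_s_at had 60.3 with the miR-429 mimic against 68.5 with the NC mimic, and 60.1 with antagomir-429 against 106 with the NC antagomir, ratios of -0.18 and -0.82. The bright probe set opposed the dim pair with the mimic, and 1 of 3 was above 0 with antagomir-429.

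With the miR-429 mimic, 2 of the 20 probe sets past the floor were at least 2-fold higher than with the NC mimic, GSK3B 226191_at and TCF7L2 212759_s_at. Of all probe sets tested, 6.61% were as far higher. One of 20, LRP6 225745_at, was at least 2-fold lower, against 4.14% of all. At these counts neither share stands out from the array as a whole. Above 0 were 16 of 20, with a median log2 ratio of 0.41, against 52.9% of all probe sets and a median of 0.04. With each array centred, and likewise after quantile normalization, 12 of 20 were above 0. Centring gave the 20 a median of 0.30 and all probe sets a median of -0.07. Without the 6 of TCF7L2, 10 of 14 were above 0 with a median of 0.16. By the brightest probe set of each of the 9 genes past the floor, 7 were above 0 with a median of 0.42. Of all genes read in that way, 49.9% were above 0, with a median of -0.002. Against the NC antagomir array, 4 of the 9 were above 0 with a median of -0.06.

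With antagomir-429, 0 of 20 were at least 2-fold higher than with the NC antagomir, against 4.32% of all, and 1 of 20, TCF7L1, was at least 2-fold lower, against 4.1%. Above 0 were 11 of 20, with a median of 0.07, against 51.2% of all and a median of 0.01. Beyond the scatter of probe sets of like signal lay 3 of 20 (32.9% of all), which were TCF7L1, TCF7L2 216035_x_at and LEF1 221558_s_at. With the mimic, 9 of 20 lay beyond it (33.4% of all). The difference between the pairs was not tested.

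The study sought targets of miR-429, which would be lower when it is added and higher when it is blocked. That pattern was seen in 3 of 20 probe sets (15%), against 21.9% of all: LRP6 225745_at, LEF1 221557_s_at and AXIN1. Signs were counted from the ratios as measured, also where 1 array of a pair was under the floor. With each array centred, AXIN1 left the pattern, at -0.02 with antagomir-429, and CTNNB1 223679_at and 1554411_at entered it, at -0.08 and -0.06 with the mimic. Past 2-fold in both pairs and in that direction were 0 of 20, against 0.429% of all. The reverse, higher with the mimic and lower with antagomir-429, was seen in 8 of 20 (40%), against 23.6% of all. It took in 4 probe sets of TCF7L2, the bright ones of AXIN2 and LEF1, TCF7L1 and LRP5, of which TCF7L2 216037_x_at and LRP5 turned sign with the mimic after centring or quantile normalization. Higher in both were 8 of 20 (40%; 29.3% of all), among them all 3 of CTNNB1 and both of GSK3B, and lower in both was 1 (5%; 25.2% of all), LEF1 210948_s_at.

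**Figure D3:**
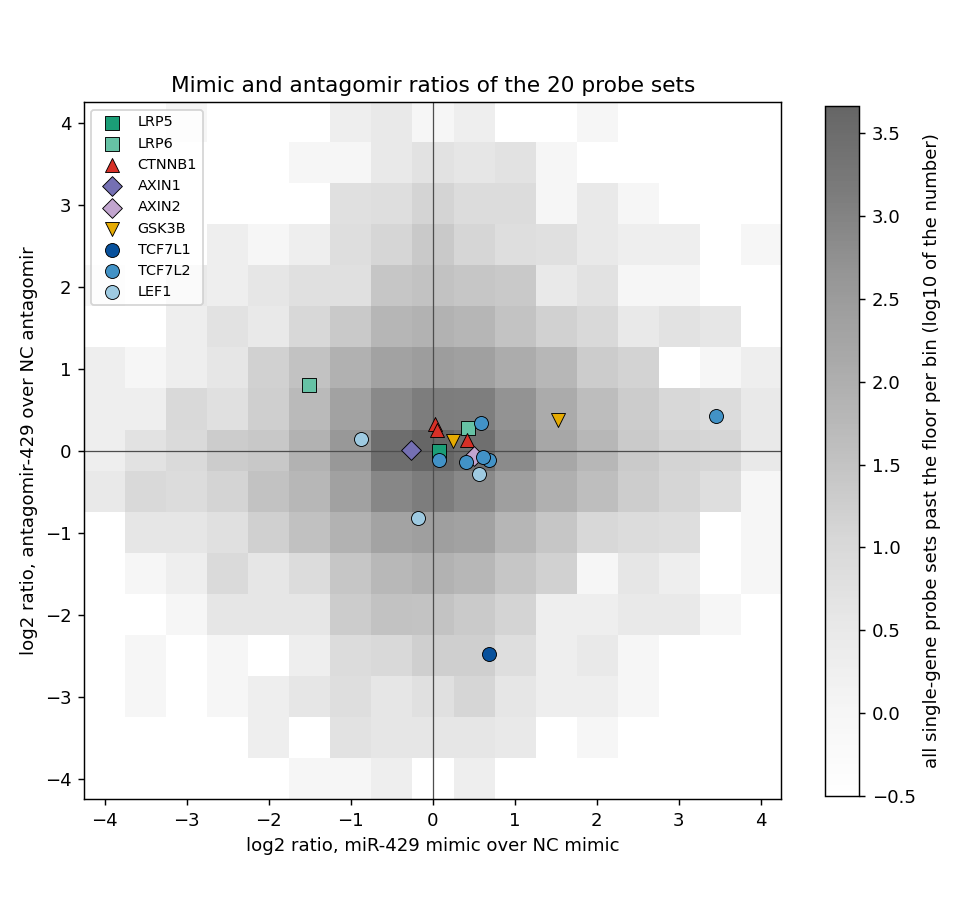
Log2 ratio with the miR-429 mimic (x axis, over NC mimic) against log2 ratio with antagomir-429 (y axis, over NC antagomir) for the 20 probe sets past the floor, over the density of all 22829 in bins of 0.5, with values beyond plus or minus 4 placed in the edge bins. Of the 20 points, 3 lie in the upper left quadrant and 8 in the lower right.

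The control arrays differed from each other in these genes by about as much as the mimic pair did. Over the NC mimic array in EpCAM-negative cells, the NC antagomir array in EpCAM-positive cells had 16 of 20 above 0 with a median of 0.31, against 49.3% of all probe sets and a median of -0.01. Without the probe sets of TCF7L2, 10 of 14 were above 0 with a median of 0.28. One of 20, TCF7L2 212759_s_at, was at least 2-fold higher, against 4.82% of all, and 1, LRP6 225745_at, was at least 2-fold lower, against 5.23%. TCF7L2 212761_at was 0.78 higher, GSK3B 226191_at 0.85, LEF1 221558_s_at 0.66, TCF7L1 0.56, AXIN2 222696_at 0.30, LRP5 209468_at 0.25 and AXIN1 0.11. CTNNB1 201533_at was level, at -0.01, or 0.01 after quantile normalization. This comparison shares the NC mimic array with the mimic pair, so a low value on that 1 array raises both. The NC mimic array was the lowest of the 4 in 13 of 20 probe sets (65%), against 29.4% of all. These took in all 6 of TCF7L2, which are not independent readings. With the NC antagomir array as the control, the mimic array was above it in 10 of 20 with a median of 0.034, and 0 of 20 were past 2-fold in either direction. Whether the sort, the reagent or that 1 array underlies it cannot be told apart.

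Gene length and RNA quality controls were set beside these values. By genomic span, 7 of the 10 genes (LRP5, LRP6, APC, GSK3B, TCF7L1, TCF7L2 and LEF1) fall in the longest of 5 equal bins of all probe sets, with a median span of 158.6 kb. That bin had a median log2 ratio of 0.24 with the mimic, 0.05 with antagomir-429 and 0.08 between the control arrays, and the shortest bin -0.17, -0.02 and -0.08. CTNNB1 and AXIN2 lie in the third bin, at 0.05 with the mimic. The 3′ to 5′ ratio of the actin control probes, which grows as RNA is degraded or labelled incompletely, was 2.63 with the miR-429 mimic against 3.41 with the NC mimic, and 3.07 with antagomir-429 against 3.12 with the NC antagomir. For GAPDH it lay between 0.90 and 0.92. The part of these in the results was not tested.

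Different probe sets of 1 gene gave a view of how far each reading can be relied on. Signs and ranges here too include ratios with an array under the floor. Of the 5 genes with several probe sets past the floor, 2 held both signs with the mimic, 2 with antagomir-429 and 3 between the control arrays, against 46.0%, 57.2% and 53.8% of 5837 such genes. The median range within a gene was 1.44 on the log2 scale with the mimic, against 0.54 over all such genes, 0.52 against 0.48 with antagomir-429 and 1.03 against 0.54 between the controls. A range depends on the number of probe sets and on their signal, and the 5 genes were not matched to the others in either.

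The rest of the pathway was read through 10 lists, each gene by its brightest probe set past the floor. Over all 13180 genes so read, 5.25% were at least 2-fold higher and 3.76% lower with the mimic, 3.72% and 3.53% with antagomir-429, and 3.62% and 4.7% between the control arrays. Of 19 Wnt ligands, 9 passed. Past 2-fold lower with the mimic were 2. WNT2B had signals of 41.0 with the miR-429 mimic against 132 with the NC mimic, at least 2.50-fold lower, while its other probe set past the floor was at 0.42, the opposite sign. WNT16 had a log2 ratio of -1.47. None of the 9 was past 2-fold with antagomir-429. Between the controls WNT11 had 96.6 in the NC antagomir array and 25.3 in the NC mimic array, at least 1.83-fold higher.

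Among Frizzled and other Wnt receptors, 12 of 14 passed and 0 were past 2-fold with the mimic, with a median of 0.28 led by FZD5 (0.93) and FZD4 (0.86). With antagomir-429, FZD4 read 172 with antagomir-429 against 15.9 with the NC antagomir, at least 3.24-fold higher. FZD9 was lower, at -1.57, and PTK7, a Wnt coreceptor of the planar polarity branch, was at least 2.27-fold lower. For FZD4 the NC antagomir array was the one that stood apart, since the other 3 read 94.8 to 172. The 5 of 9 R-spondin branch genes that passed, which control how long Frizzled stays at the surface, had 0 past 2-fold with the mimic, where LGR4 was at 0.85 and RNF43 at -0.74. Their median with the mimic was -0.47, and 0.53 with the floor at the 75th percentile. RSPO3 was 1.28 higher with antagomir-429, where the NC antagomir array, at 72.1, stood under the other 3 (165 to 228). Of 16 secreted or membrane inhibitors, 7 passed and 0 were past 2-fold in any comparison. Their median with antagomir-429 was 0.25, and -0.58 with the floor at the 75th percentile, and NOTUM, which removes the lipid of Wnt, was at 0.64 with the mimic and 0.83 with antagomir-429. WLS, the carrier that takes Wnt to the surface, was at 0.06 with the mimic, or -0.05 with each array centred, and at -0.10 with antagomir-429.

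Inside the cell, 22 of 24 Dishevelled, kinase and other destruction complex genes passed. Past 2-fold with the mimic, 3 were higher and 0 lower, and the median was 0.01, or -0.10 with each array centred. The 3 were NKD1 (1.21), a Dishevelled antagonist that Wnt induces, and BTRC (1.20) and FBXW11 (1.13), the ubiquitin ligase subunits that recognise phosphorylated β-catenin. The 3 probe sets of BTRC past the floor ran from -0.64 to 1.86, with 2 of 3 above 0. For BTRC and FBXW11 the NC mimic array was the lowest of the 4. Against the NC antagomir array their mimic ratios were 0.49 and 0.49, under 2-fold. At the signal of NKD1 the scatter was 1.03 with the mimic. With antagomir-429, APC2, a relative of APC, was at 1.43, where the NC antagomir array, at 60.04, stood under the other 3 (125 to 231). NKD1 was under the floor on both arrays, at 18.2 with antagomir-429 against 44.6 with the NC antagomir. Of 20 nuclear cofactors, 18 passed, and past 2-fold higher with the mimic were the acetyltransferase EP300 (1.14), the corepressor TLE4 (1.05) and the β-catenin inhibitor CHD8 (1.03). The 3 probe sets of TLE4 past the floor ran from -0.30 to 1.05, with 2 of 3 above 0. For EP300, TLE4 and CHD8 too the NC mimic array was the lowest of the 4. Against the NC antagomir array their mimic ratios were 0.33, -0.07 and 0.66, under 2-fold. With antagomir-429 BCL9, which links β-catenin to its coactivator, was at -1.14, where the NC antagomir array, at 267, stood above the other 3 (74.1 to 133). Among 3 of 5 catenin and cadherin partners, CDH2, N-cadherin, had signals of 835 with the miR-429 mimic against 378 with the NC mimic, and 662 with antagomir-429 against 639 with the NC antagomir, where the NC mimic array was again the lowest.

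The transcriptional readout of the pathway was mostly small. Of all genes read by their brightest probe set, 49.9% were above 0 with the mimic, 51.0% with antagomir-429 and 47.8% between the controls. Of 22 widely used β-catenin targets, AXIN2 and LEF1 among them, 18 passed. With the mimic 13 of the 18 were above 0 with a median of 0.29. NKD1 (1.21) was past 2-fold higher and TBXT, a mesodermal transcription factor, lower at -1.79. For TBXT the NC mimic array, at 208.6, stood above the other 3. With antagomir-429, 7 were above 0 with a median of -0.05, and none was past 2-fold with an array of the pair above the floor. TBXT and NKD1 had ratios past 2-fold with both arrays under it, and no fold is given. Between the controls 7 of the 18 were above 0 with a median of -0.10, and 1 was past 2-fold higher and 3 lower. The higher was SP5, a factor that β-catenin induces directly, at a ratio of 1.25. It had 428.6 in the EpCAM-positive NC antagomir array and 180.3 in the EpCAM-negative NC mimic array. Lower were FOSL1 at -1.17 and, against the floor, TBXT by at least 3.94-fold and MMP7 by at least 1.32-fold. Of 12 β-catenin-dependent liver genes, which also hold NKD1 and SP5, 8 passed and 7 of them were above 0 with the mimic at a median of 0.44. NKD1 alone was past 2-fold, where the scatter was 1.03. Against the NC antagomir array the mimic ratios were -0.65 for SP5, 0.04 for TBX3, 0.13 for CYP2E1 and 0.18 for GLUL. They were 0.21 for SLC13A3, 0.27 for CYP1A2, 0.44 for OAT and 1.93 for NKD1, whose NC antagomir array was under the floor. With antagomir-429 the median of the 8 was 0.13.

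**Figure D4:**
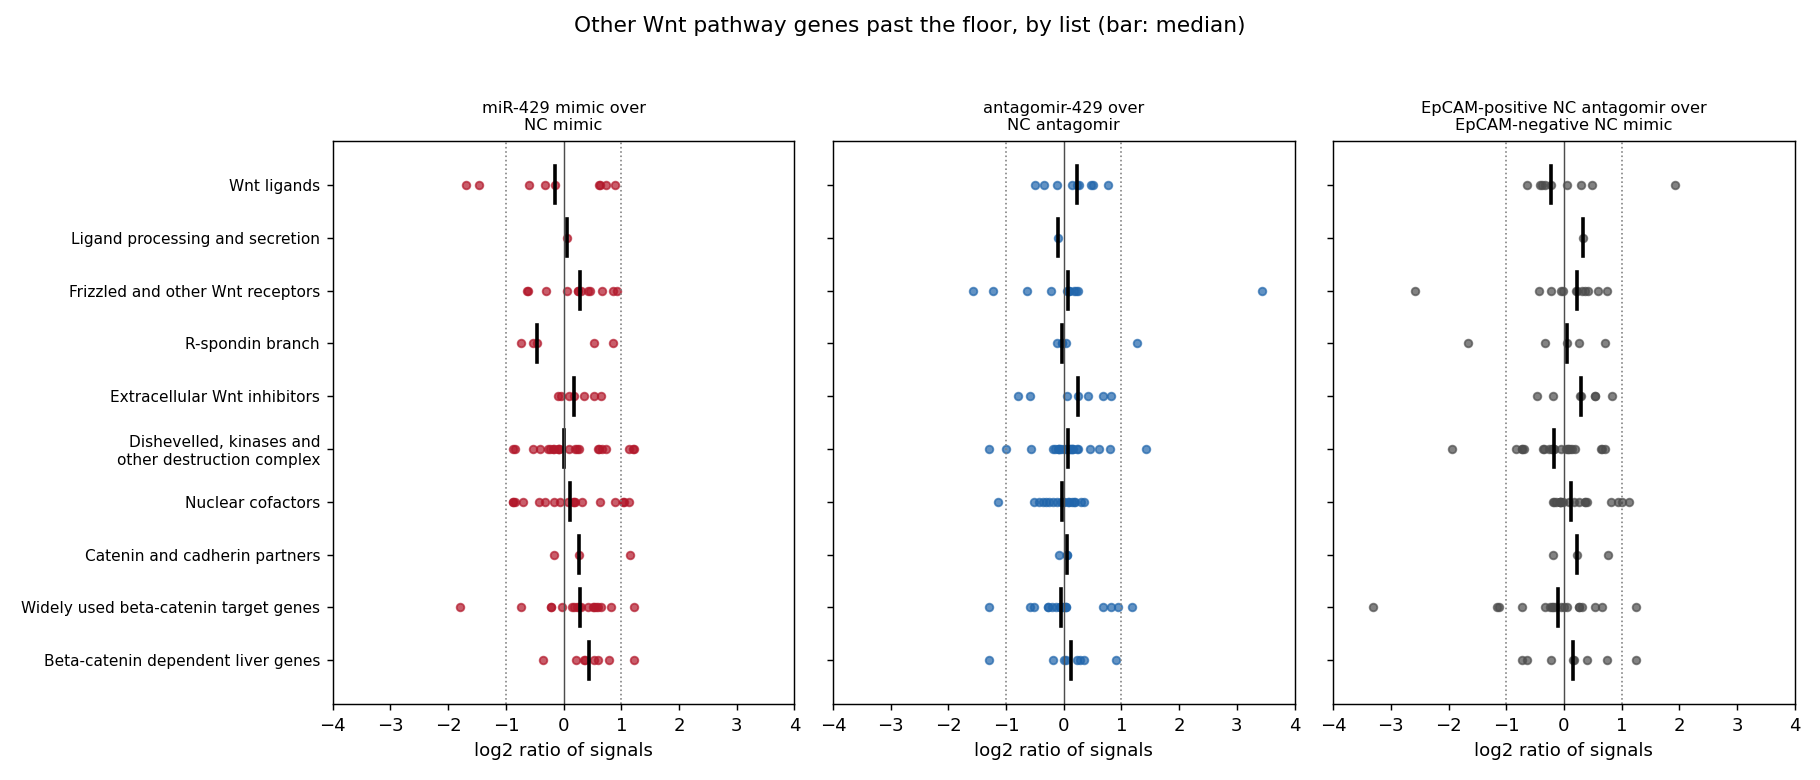
Log2 ratios (x axis) of the genes of the 10 pathway lists in the 3 comparisons, 1 point per gene by its brightest probe set past the floor. Bars mark the median of each list, and dotted lines mark 2-fold. With the mimic the medians run from -0.47 for the R-spondin branch to 0.44 for the β-catenin-dependent liver genes, and with antagomir-429 they lie between -0.10 and 0.25. With the floor at the 75th percentile the R-spondin median is 0.53 with the mimic and that of the inhibitors, the highest with antagomir-429, is -0.58.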

How the data were processed

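The 4 Affymetrix Human U133 Plus 2.0 arrays were deposited as log2 signals that the authors made with MAS5, per the submitters' processing notes. No MAS5 version or target is given in the sources used here. On the linear scale each array had a mean of 500.1 once its top and bottom 2% were dropped, so the values were used as deposited. Of 54675 probe sets, 62 controls were left out. The platform annotation can be old. It gave 1 symbol for 41091 probe sets, several for 1801 and none for 11721. Entrez identifiers of 41037 matched RefSeq, and 0 member symbols changed. Of each array, 150 to 249 values were exactly 0.

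Log2 ratios of single arrays were computed in 3 comparisons, and probe sets at or past 2-fold were counted. With 1 array per group no test was possible, and precision is limited by the number of arrays. Where 1 array of a pair was under the floor, the fold uses the floor in its place and is given as "at least". Both under the floor gave no fold. The scatter is the robust SD of ratios of probe sets of like mean signal, in 20 bins. Named were all members and, from each list and comparison, up to 3 genes in each direction past 2-fold with the largest ratios, or otherwise the 2 largest, and EPCAM. The members and lists were chosen with earlier results of these data known. Alternatives were centring, quantile normalization, an offset of 16, other floors, a 1.5-fold threshold, other choices of probe sets and the other control array. Python 3.11.15, numpy 2.4.6, pandas 2.3.3, scipy 1.17.1 and matplotlib 3.10.9 were used, and the counts were tested on simulated data.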

Additional observations from a re-analysis of the deposited data

How the results depend on the processing

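Counts past 2-fold among the 20 probe sets did not move after centring, quantile normalization or an offset of 16 signal units. Centring moved the median with the mimic to 0.30. It also moved the split of all probe sets past 2-fold with the mimic to 1212 higher and 1188 lower, against 1508 and 944 as deposited. With a floor at the 75th percentile, a signal of 265.6, 13 probe sets were left: 1 higher and 0 lower with the mimic (2.07% and 0.528% of all), 0 lower with antagomir-429 (0.264%), and 0 higher and 0 lower between the controls (0.866% and 0.685%). With no floor, over all 34, the counts were 5 higher and 5 lower with the mimic (16.5% and 13.9% of all), 4 and 5 with antagomir-429 (14.3% and 15.5%), and 6 and 4 between the controls (15.2% and 15.6%). Leaving out probe sets that can cross-hybridise (_s_at and _x_at) left 10, with 1 higher (7.24% of all) and a median of 0.25 with the mimic, 0 lower (4.85%) and a median of 0.19 with antagomir-429, and 0 higher (5.37%) and a median of 0.18 between the controls. By the brightest probe set of each gene, 0 were higher with the mimic (5.25% of all genes) and 0 between the controls (3.62%). At 1.5-fold, 6 were higher and 2 lower with the mimic (17.3% and 11.2% of all), 1 and 2 with antagomir-429 (10.9% and 9.59%), and 5 were higher between the controls (12.7%). Against the EpCAM-positive NC antagomir array, the mimic had 0 higher (6.19% of all), 0 lower (3.66%) and a median of 0.034. There LRP6 225745_at had a ratio of 0.21 with both arrays under the floor, so no direction is read from it. Against the EpCAM-negative NC mimic array, antagomir-429 had 2 higher (5.78% of all) and a median of 0.24. Of the 30 medians of the pathway lists, 10 moved by 0.1 or more with centring, 2 with quantile normalization, 8 with the stricter floor and 6 with no floor. With the stricter floor the R-spondin median with the mimic was 0.53, against -0.47, and the inhibitor median with antagomir-429 was -0.58, against 0.25. With no floor the Wnt ligand median was 0.31 with the mimic, against -0.14, and 0.29 between the controls, against -0.23. The cause of these moves was not tested beyond the fewer probe sets or the other array that each setting itself brings. No paired analysis was possible because each group has 1 array, and for the same reason no array could be left out. Signals at or near the floor limit APC, LRP6, TCF7L1 and the dim LEF1 pair.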
